A study of Mus musculus with 10 samples.

Results

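The genes described here encode 8 proteins that build the node of Ranvier and the axon segments beside it, measured in mouse sensory neurons sorted from the lumbar dorsal root ganglia (DRG) and from the trigeminal ganglion (TG). They were chosen by name, not by their values: Cntnap1, Cntnap2, Cntn1, Cntn2, Nfasc, Ank3, Sptbn4 and Epb41l3, which are 8 of the 45952 rows of the expression table. Of these, 7 were found by their symbol. Epb41l3 is listed there under its older name Epb4.1l3 and was found by its Ensembl identifier, ENSMUSG00000024044. All 8 genes have 1 row each. A row counted as detected at 1 or more FPKM (reads scaled for transcript length and library size) in at least 2 DRG or at least 2 TG libraries, which 12637 rows reached. Of the 8 genes, 7 were detected and entered the tests across all genes, and Sptbn4 was not.

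Myelinated axons conduct by jumping from node to node, and each node is flanked by a paranode, where the myelin loops are sealed to the axon, and a juxtaparanode under the compact myelin. At the paranode, axonal Caspr (Cntnap1) and contactin (Cntn1) bind a glial form of neurofascin (Nfasc). At the juxtaparanode, Caspr2 (Cntnap2) and TAG-1 (Cntn2) hold voltage-gated potassium channels in place. At the node itself, an axonal form of neurofascin, ankyrin-G (Ank3) and beta-IV spectrin (Sptbn4) anchor sodium channels. Beside the node, protein 4.1B (Epb41l3) ties both Caspr proteins to the cytoskeleton. The ankyrin and spectrin of the node are also found at the axon initial segment, which neurons with unmyelinated axons have too.

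Mice of 3 to 6 months of age carried Avil-GFP, a transgene (STOCK Tg(Avil-EGFP)QD84Gsat/Mmucd) in which GFP is driven by the promoter of advillin, a sensory neuron gene, and were bred on a CD1 background. All were naïve, with neither injury nor treatment. The 10 libraries each came from 1 mouse: 6 from lumbar DRG (3 male, 3 female) and 4 from TG (2 male, 2 female). GFP-positive cells that excluded propidium iodide were sorted by FACS, after a dissociation that the study describes as keeping fewer large neurons than small and medium ones. Dissociated cell bodies lack most of their axon, and the labels name satellite glial cells as a contaminant.

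Sums of FPKM ran from 543862 to 870872 per library. Relative depth was estimated from the most common ratio to male DRG replicate 1 among values under 0.1 FPKM, and the estimates spanned 1.52-fold. The lowest estimate, 0.707 in female DRG replicate 3, rests on a peak of 15 of 211 genes and is rough. The tables used give no read counts, so the spread between mice stands for the precision. In rank correlation with the rest, 3 DRG libraries stood apart (male DRG replicate 3 and female DRG replicates 1 and 3, medians 0.849 to 0.895, against 0.933 to 0.948 for the other 7). Of 12 general sensory neuron genes, 11 were found and all 11 were detected, with Avil at 739 ± 335 FPKM over the 6 DRG libraries and 1031 ± 139 over the 4 TG libraries (SD). Glial RNA was present in all libraries: the 18 satellite glia genes summed to 2619 to 8524 FPKM in DRG and 4959 to 6633 in TG, and the 15 Schwann cell and myelin genes to 925 to 1458 and 1416 to 1983. Of 12 macrophage genes, 3 were detected, of which Aif1 stood at 12.5 FPKM in DRG and 9.38 in TG and reached 1 in all 10 libraries, while Cx3cr1, Adgre1 and Ptprc stayed below 0.1 FPKM on average in both ganglia.

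Of the 8 genes, Cntnap2 alone separated the ganglia, with every DRG library above every TG library. Of all rows tested, 1.95% separated the ganglia in this way and 0.681% had DRG on the higher side. The 6 DRG libraries had a Cntnap2 mean of 25.5 ± 8.03 FPKM (SD), which is 2.13 times the 12.0 ± 1.82 (SD) of the 4 TG libraries. This difference did not pass the test across all genes (limma, adjusted p = 0.329). Its contactin partner Cntn2 had the lower mean in DRG, which did not pass either (limma, adjusted p = 0.807). The ratio of the juxtaparanodal pair did not overlap between the ganglia. Its exact permutation test fell short of the threshold once any 1 TG library was left out. For the other detected genes the ratio of the DRG to the TG mean lay between 0.918 (Cntn1) and 1.23 (Epb41l3), and the libraries overlapped.

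**Figure D1:**
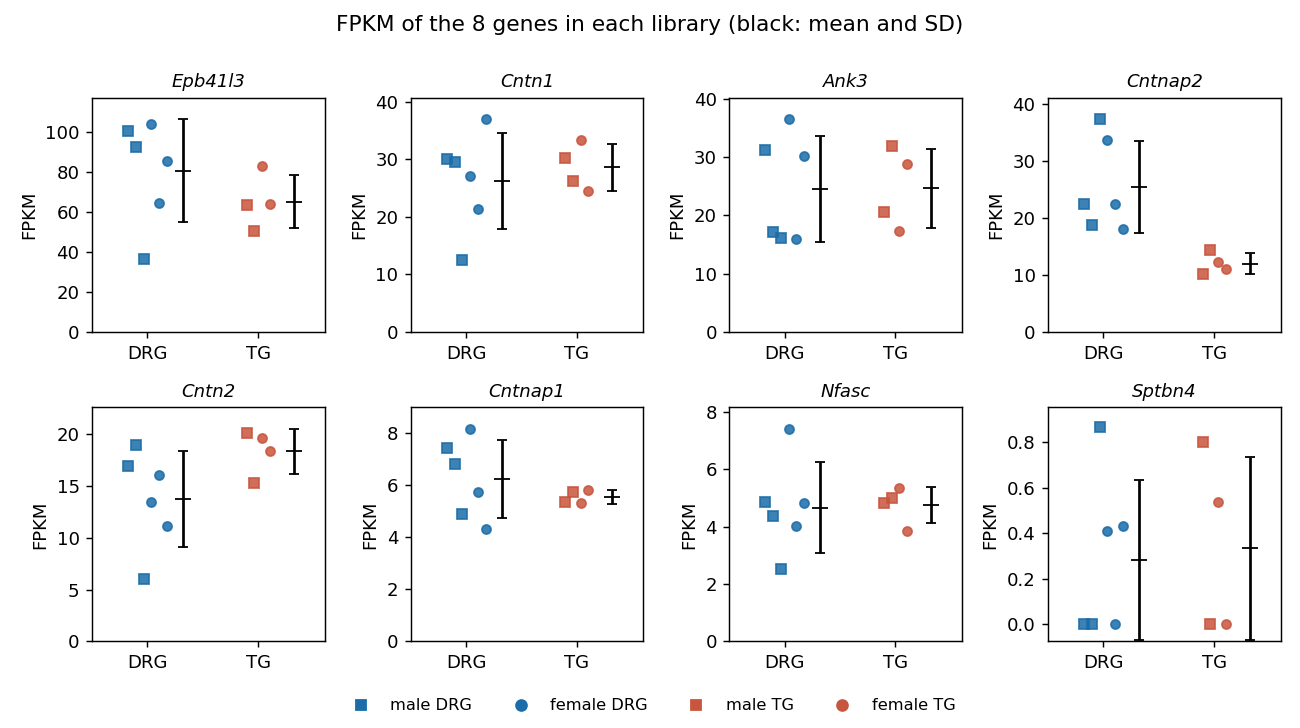
FPKM (linear axis) of each of the 8 genes in the 6 DRG and 4 TG libraries, squares for males and circles for females, with the mean and SD of each ganglion in black. For Cntnap2 the DRG libraries lie between 18.1 and 37.3 and the TG libraries between 10.2 and 14.4, while for the other 7 genes the ganglia overlap.

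Cntnap2 (ENSMUSG00000039419) spans a very long locus on chromosome 6 of GRCm38, from 45059357 to 47304213 on the plus strand. In males it was measured at 22.5, 18.8 and 37.3 FPKM in the DRG libraries and at 10.2 and 14.4 in the TG libraries. In females the DRG libraries gave 33.6, 22.5 and 18.1 FPKM and the TG libraries 12.3 and 11.0. The ganglia thus did not overlap in either sex. On the log2(FPKM + 1) scale the difference of DRG over TG was 0.99 (SE 0.25, 95% interval 0.44 to 1.54). In limma the unadjusted p of 0.00211 ranked 81st of the 12637 rows. An exact two-sided permutation test of this single gene gave p = 0.00476, the smallest its 210 splits allow, and this value is not adjusted for the number of genes. It largely follows from the lack of overlap given above and is not separate evidence. Of all rows tested, 2.29% were higher in DRG at an unadjusted p under 0.05 and 0.111% passed the adjusted threshold in either direction.

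The 2 highest values of Cntnap2, 37.3 and 33.6 FPKM, came from libraries that stood apart. Without these and the third such library the difference was 0.79 (limma, adjusted p = 0.239), and the 3 DRG libraries that remain, at 18.8 to 22.5, were still above all TG libraries. When limma weighted the libraries by their quality, the difference of 0.92 passed the threshold (adjusted p = 0.0190), in a fit that called 118 genes in place of 14. Libraries of bulk RNA cannot tell fewer Cntnap2-expressing cells from less Cntnap2 RNA per cell. On the log2 scale, Schwann cell and myelin genes were lower in DRG for 10 of the 12 tested, with a median difference of -0.41 against -0.05 over all genes. Satellite glia genes were lower on that scale for 8 of 18. The part of either in the Cntnap2 values was not tested.

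Cntn2 (ENSMUSG00000053024, chromosome 1, 132509427 to 132543256, minus strand) encodes the contactin that pairs with Caspr2 on the axon and is also made by myelinating glia. It ranged in DRG from 6.05 FPKM through a median of 14.8 to 18.9, and measured 20.1, 15.3, 19.7 and 18.4 in the TG libraries. The means were 13.8 ± 4.66 (SD, n = 6) and 18.4 ± 2.19 (SD, n = 4). No DRG library reached above the TG range, but 3 of 6 lay within it, and the difference of -0.46 (SE 0.29) did not pass (limma, adjusted p = 0.807). The lowest value was that of male DRG replicate 3, the library with the highest Cntnap2.

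Within libraries, the FPKM of Cntnap2 was 0.993 to 6.16 times that of Cntn2 in DRG and 0.508 to 0.941 times in TG. Cntnap2 therefore had the higher FPKM of the pair in 5 of 6 DRG libraries and in 0 of 4 TG libraries. The log2 ratio, with 1 added to each FPKM, was 0.86 ± 0.88 over the 6 DRG libraries and -0.58 ± 0.35 over the 4 TG libraries (SD), and the ganglia did not overlap. This difference of 1.45 had p = 0.0143 by an exact two-sided permutation test, and p = 0.0357 adjusted over the 5 ratios that were computed.

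The ratio of the Caspr genes also separated the ganglia. Cntnap1 stood at 0.260 ± 0.0812 of the FPKM of Cntnap2 over the 6 DRG libraries and at 0.470 ± 0.0648 over the 4 TG libraries (SD). The log2 ratio of Cntnap1 to Cntnap2 was lower in DRG by 0.87 (means -1.85 and -0.98), again with no overlap, and the exact permutation test gave p = 0.00952 (adjusted p = 0.0357). Cntnap2 enters both ratios, so they are not separate evidence. Both passed without any 1 DRG library (adjusted p = 0.0397, exact permutation tests) and neither without any 1 TG library (0.0595 to 0.119). Without the 3 DRG libraries that stood apart the differences were 0.86 and -0.56, with an adjusted p of 0.143 for each (exact permutation tests). The other 3 ratios, Cntn1 to Cntn2, Cntnap1 to Cntn1 and Sptbn4 to Ank3 (with a listed 0 taken as 0), overlapped between the ganglia (exact permutation tests, adjusted p = 0.413 to 0.995).

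**Figure D2:**
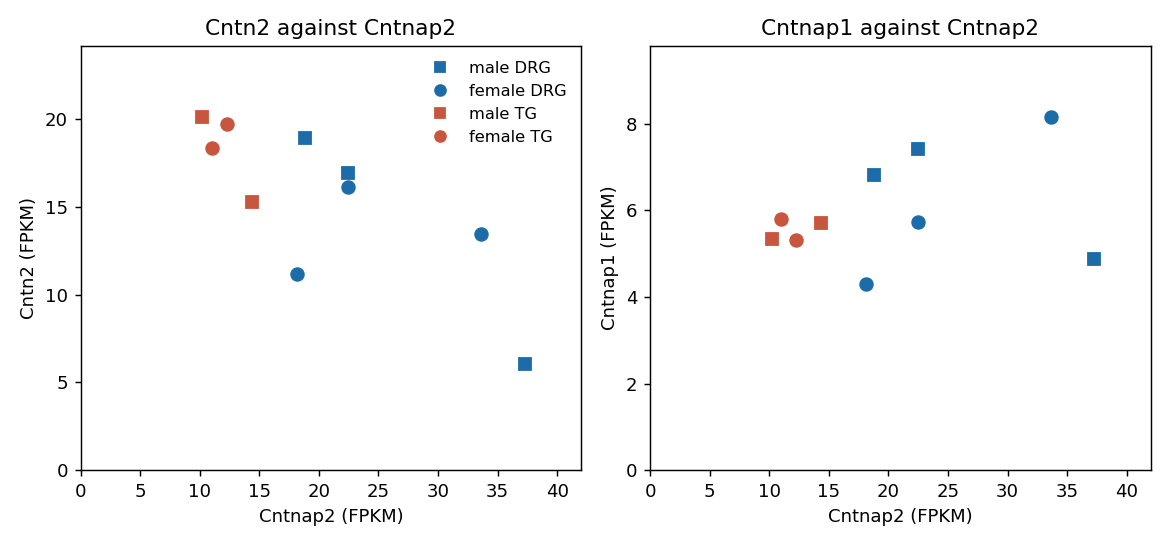
Cntn2 (left) and Cntnap1 (right) against Cntnap2, both axes in FPKM, 1 point per library, squares for males and circles for females. The 4 TG points lie at a Cntnap2 of 10.2 to 14.4 and the 6 DRG points at 18.1 to 37.3, with male DRG replicate 3 at the lower right of the left panel (Cntnap2 37.3, Cntn2 6.05).

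Among the paranodal genes, Cntn1 had the highest FPKM, and neither it nor its partners passed the test between the ganglia. Cntn1 (ENSMUSG00000055022, chromosome 15, 92051165 to 92341967, plus strand) had a lowest, median and highest FPKM of 12.6, 28.4 and 36.9 in DRG and measured 30.3, 26.2, 33.4 and 24.5 in TG. The difference was -0.18 (SE 0.28, limma, adjusted p = 0.904). The low end is male DRG replicate 3 again, and without it the difference was 0.01.

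Cntnap1 (ENSMUSG00000017167, chromosome 11, 101170523 to 101190724, plus strand), the axonal partner of Cntn1 in the paranodal seal, had one of the smaller spreads between mice. Its DRG libraries ran from 4.30 through a median of 6.28 to 8.16 FPKM, and its TG libraries gave 5.33, 5.71, 5.31 and 5.79. The TG values lay inside the DRG range, and the difference was 0.12 (SE 0.23, 95% interval -0.39 to 0.62, limma, adjusted p = 0.919). Its spread around the fit, an SD of 0.26 on the log2 scale, was among the smallest 10.9% of all genes tested. Exons of Cntnap1 overlap Plekhh3 on the opposite strand, and the library kit is not stated to keep strand. Plekhh3 is listed at 0 in all 10 libraries, which does not show that it had no reads.

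Nfasc (ENSMUSG00000026442, chromosome 1, 132564690 to 132741797, minus strand) makes the glial neurofascin of the paranode and the axonal one of the node from a single gene, and the table does not separate them. It was the lowest of the 7 detected genes at 2.52, 4.60 and 7.42 FPKM (lowest, median and highest) in DRG and 4.82, 5.01, 5.34 and 3.85 in TG. The ganglia overlapped and the difference was -0.06 (SE 0.26, limma, adjusted p = 0.961).

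Of the nodal scaffold, Ank3 was detected in every library and Sptbn4 reached 1 FPKM in none. Ank3 (ENSMUSG00000069601, chromosome 10, 69398773 to 70027438, plus strand) measured 16.0, 23.7 and 36.5 FPKM (lowest, median and highest) in DRG and 20.6, 31.9, 17.3 and 28.8 in TG. The ganglion means were nearly equal, 24.6 ± 9.15 (SD, n = 6) and 24.6 ± 6.84 (SD, n = 4), and the difference was -0.04 (SE 0.30, 95% interval -0.71 to 0.62, limma, adjusted p = 0.980). Its values split instead within the ganglia and within each sex: 5 libraries lay at or below 20.6 FPKM and 5 at or above 28.8, with none in between. Each side held DRG and TG libraries of both sexes. Of the 4 pairs of a DRG and a TG library that carry the same number in their descriptions, 3 had both libraries on the same side. The gap was picked from these same values and this count was not made for other genes, so it shows no pattern of the pairs.

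Sptbn4 (ENSMUSG00000011751, chromosome 7, 27356383 to 27447686, minus strand) is listed at 0 in 5 of 10 libraries, 3 of DRG and 2 of TG. In the other libraries it stood at 0.864, 0.410 and 0.430 FPKM in DRG and at 0.798 and 0.539 in TG, so no library reached 1. A listed 0 does not mean that no read was counted: the authors' normalized count of Sptbn4, averaged over the libraries, was 23.4, against 348 for Cntnap1 and 525 for Nfasc. Its exons overlap Gm20479 on the same strand, which is listed at 0 in all 10 libraries, and Gm44924 on the opposite strand. No fold change is given for Sptbn4, and its listed values overlapped between the ganglia.

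Epb41l3 (chromosome 17, 69075683 to 69289989, plus strand), the submembrane linker below both Caspr proteins, had the highest mean FPKM of the 8 genes. It measured 36.4, 89.0 and 104 FPKM (lowest, median and highest) in DRG and 63.4, 50.4, 83.1 and 64.1 in TG, and 4 of 6 DRG libraries were above all TG libraries. The difference of 0.24 (SE 0.29, 95% interval -0.38 to 0.87) did not pass (limma, adjusted p = 0.881). The one DRG library below the TG range was male DRG replicate 3, and without it the difference was 0.45.

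**Figure D3:**
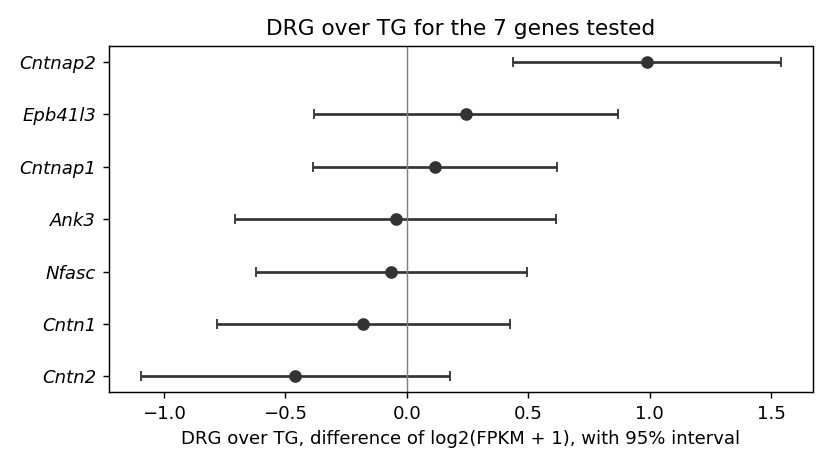
Difference of log2(FPKM + 1), DRG over TG, for the 7 genes tested, with the 95% interval from limma. Cntnap2 is the 1 gene whose interval (0.44 to 1.54) leaves out 0, and the other 6 intervals include it.

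By mean FPKM over 10 libraries, the order was Epb41l3 (74.4), Cntn1 (27.2), Ank3 (24.6), Cntnap2 (20.1), Cntn2 (15.6), Cntnap1 (5.94) and Nfasc (4.70). Sptbn4 was last, below 1 FPKM in every library. FPKM did not always go with the authors' mean normalized count: the axonal partner Schip1 had 123 FPKM at a count of 46.7, and Kcnk2 had 3.95 at 139. The order is therefore one of FPKM, and amounts of RNA may be ordered otherwise. Among the 12637 detected rows, Epb41l3 stood at the 88.6th percentile of mean FPKM, Cntn1 at the 75.9th, Cntnap1 at the 45.5th and Nfasc at the 40.2nd. Neighbours in this order were compared within libraries by an exact two-sided sign-flip permutation test, with p adjusted over the 7 pairs. Epb41l3 over Cntn1, Cntn2 over Cntnap1 and Nfasc over Sptbn4 held in 10 of 10 libraries each (exact adjusted p = 0.00456), and Cntnap1 over Nfasc in 8 of 10 (exact adjusted p = 0.0273). The order was taken from these same libraries, so these p describe how steady it was between libraries and are not separate evidence for it. Nfasc was above 1 FPKM and Sptbn4 below 1 FPKM in every library, so the result for that pair was fixed beforehand. Cntn1, Ank3, Cntnap2 and Cntn2 did not differ from their neighbours beyond the spread (exact adjusted p = 0.276 to 0.418). Within this middle set, the place of Cntnap2 depended on the ganglion: it ranked between 1st and 4th of the 8 genes in the DRG libraries and 5th in all 4 TG libraries.

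No gene of the set passed the test between the sexes. Log2 differences of male over female ran from -0.29 for Epb41l3 to 0.06 for Cntnap2 (limma, adjusted p = 0.821 to 0.966), against 0.0237% of all rows passing. Cntnap2 means were 26.2 FPKM in male and 24.7 in female DRG, and 12.3 in male and 11.6 in female TG. The interaction of ganglion and sex passed for 0 of the 7 genes (limma, adjusted p = 0.9999 for each), and for 0 of 12637 rows, of which 1.17% had an unadjusted p under 0.05. For Cntnap2 the estimate was 0.01, with an interval from -1.18 to 1.19, which includes differences as large as that between the ganglia.

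Across libraries, several of the genes moved together, in some pairs mostly through 1 library. Male DRG replicate 3 held the lowest value of all 10 libraries for Epb41l3, Cntn1, Cntn2 and Nfasc and the highest for Cntnap2. It also had the largest FPKM total (870872) and the highest sums of satellite glia genes (8524 FPKM) and general neuron genes (9903 FPKM). Within those lists it went both ways: of the 11 neuron genes it was the highest library for 6 and the lowest for 3 (Avil at 172 FPKM, Pou4f1 at 68.1 and Snap25 at 756), and of the 18 satellite glia genes the highest for 7 and the lowest for 5. The part of these in the values was not tested. Over 10 libraries, Cntn1 had a Pearson correlation of 0.77 with Epb41l3, 0.73 with Nfasc and 0.68 with Cntn2 on the log2(FPKM + 1) scale. Without that library these were 0.45, 0.29 and -0.18, so the relation of the contactins rests on it. Other pairs kept most of theirs, as Cntnap1 with Epb41l3 (0.56, and 0.49 without it), Cntnap1 with Nfasc (0.52 and 0.44) and Nfasc with Ank3 (0.58 and 0.46), and Cntnap2 turned toward Epb41l3 (-0.04 and 0.62) and Cntnap1 (0.30 and 0.62). Cntnap2 and Cntn2 ran against each other, at -0.73 over 10 libraries. The value was -0.66 after each ganglion was centred on its mean, with male DRG replicate 3 kept. Without that library it was -0.57, with the difference between the ganglia kept. No value was computed with both removed, so a relation apart from that library and the ganglion difference was not tested. The points share library preparation and depth, and these correlations are descriptions with no test.

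**Figure D4:**
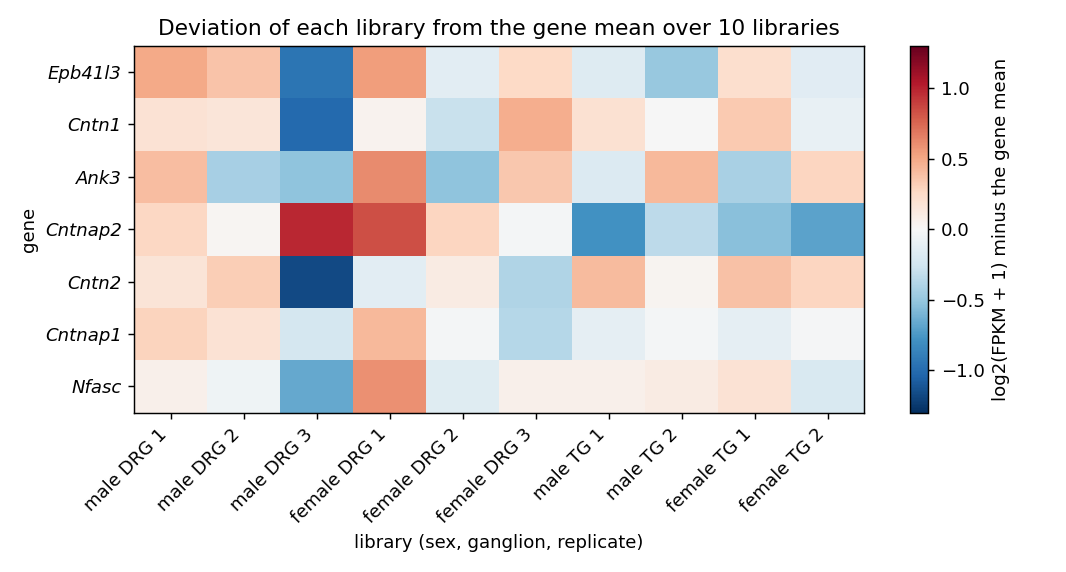
Log2(FPKM + 1) of the 7 detected genes (rows) in each of the 10 libraries (columns), minus the mean of the gene over all libraries, red above and blue below. Male DRG replicate 3 is low for Epb41l3, Cntn1, Cntn2 and Nfasc and high for Cntnap2, the 4 TG libraries are low for Cntnap2, and Ank3 has high and low libraries in both ganglia.

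The genes whose pattern was most like each of these were sought among 7383 rows with a mean of at least 5 FPKM, by Pearson correlation of log2(FPKM + 1) over the 10 libraries. For Cntnap2 they were Nppb (0.94), the natriuretic peptide of itch-sensing neurons, and Smr2 (0.92). For Cntn1 they were Chn1 (0.98) and Ccar1 (0.97), for Cntn2 Wdr36 and Stau1 (both 0.98), and for Epb41l3 Dnajc6 (0.97) and Spata13 (0.96). Cntnap1 was closest to Snx25 (0.91) and Ctif (0.88), Nfasc to Tcp1 (0.95) and B3galt1 (0.94), and Ank3 to Eif5b (0.93) and Cdk7 (0.91). The best of 7383 rows over 10 libraries can correlate this highly through the choice itself, and none of these correlations was tested. Male DRG replicate 3 was the highest library for both Cntnap2 (37.3 FPKM) and Nppb (98.8).

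The paralogs of these genes showed no ganglion difference that passed the test. Of 21 relatives in the contactin, Caspr, L1, ankyrin, spectrin and protein 4.1 families, 17 were detected. By the fitted log2 difference 8 leaned to DRG and 9 to TG, without any passing (median difference -0.02, against -0.05 over all genes). The most abundant were Sptbn1 (176 FPKM over all libraries), Ank2 (131) and L1cam (77.1), the broadly used spectrin, ankyrin and adhesion molecule of axons, so Ank3 was found well below Ank2 and Sptbn4 far below Sptbn1. Epb41, the erythroid protein 4.1, was the relative with the smallest p, with means of 2.12 ± 0.706 FPKM over the 6 DRG libraries and 5.06 ± 2.34 over the 4 of TG (each with its SD, limma, adjusted p = 0.635).

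Of 21 axonal partners, the channels and scaffolds that these proteins hold at the node and juxtaparanode, 20 were detected. By the fitted log2 difference 8 were higher and 12 lower in DRG, and none passed (median -0.08). By mean FPKM several of those 12 had the higher value in DRG, so this split depends on the scale. Kcna1 and Kcna2, the juxtaparanodal potassium channels that Caspr2 and TAG-1 cluster, had differences of 0.15 and 0.18 (limma, adjusted p = 0.905 and 0.887), and the nodal sodium channel Scn8a of 0.03 (limma, adjusted p = 0.981). The potassium channel Kcnk2 had the smallest p, with means of 2.22 ± 1.17 FPKM over the DRG libraries and 6.55 ± 3.79 over those of TG (SD, n = 6 and 4, limma, adjusted p = 0.618). Of 10 glial partners, 6 were detected and none passed. The glial partners Gldn, Mag and Cadm4 stayed below 1 FPKM on average in both ganglia, while Cadm1 stood at 201 FPKM in DRG and 331 in TG. Other genes of myelinating glia ranged widely. Of the 15 Schwann cell and myelin genes, 12 were detected. Pmp22 stood at 1071 FPKM in DRG and 1490 in TG, and Mbp at 100 and 162. The median of the 15 genes was far lower, at 0.794 to 4.03 FPKM per library in DRG and 1.32 to 3.49 in TG.

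Markers of afferent classes were counted beside Cntnap2. By the fitted log2 difference, 6 of 12 genes of unmyelinated afferents were higher and 6 lower in DRG. Of 12 genes of myelinated afferents, 5 were higher and 7 lower, and none of either class passed. Of the 13 afferent genes named by the rule, 7 had the higher mean in DRG, as Cntnap2 had, and 6 the lower (limma, adjusted p = 0.233 to 0.996). On the higher side, Nppb stood at 57.7 ± 25.0 FPKM in DRG and 17.0 ± 12.6 in TG (SD, n = 6 and 4 here and in the next values), Calca, the gene of the peptide CGRP, at 8216 ± 4072 and 3430 ± 1261, and Th, the tyrosine hydroxylase of a class of low-threshold C fibres, at 216 ± 81.4 and 81.0 ± 37.9. Nefh, the heavy neurofilament of large neurons, stood at 183 ± 58.2 and 112 ± 32.9, and Runx3, a transcription factor of proprioceptors, at 1.17 ± 0.520 and 0.246 ± 0.127. Runx3 did not overlap between the ganglia, as 1.95% of all rows tested did not. It is near the floor: its TG libraries lay at 0.0597 to 0.345 FPKM, so it counted as detected through its DRG libraries alone. Tac1 and Nefm were nearly level, at 1077 and 1015 and at 767 and 762. On the lower side were both classes too. Among genes of myelinated afferents, Necab2 stood at means of 4.36 FPKM in DRG and 9.24 in TG (log2 difference -0.96, SE 0.26) and Calb1 at medians of 9.08 (2.17 to 21.8) and 28.9 (10.3 to 45.4), and Nefl and Ldhb also had lower DRG means. Among those of unmyelinated afferents, P2rx3, an ATP receptor, stood at 69.3 ± 27.9 and 99.0 ± 6.56, and Mrgprd, of non-peptidergic C fibres, at 146 ± 68.0 and 207 ± 57.5. Their part in the Cntnap2 values was not tested.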

How the data were processed

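RNA was sequenced from 10 libraries of sorted neurons, each from 1 mouse, made with a low-input SMARTer kit after extraction in a single batch. Per the labels and methods, the authors aligned reads to mm10 with STAR and computed FPKM per gene with cufflinks, and the submitters' processing notes also name SAMtools and DESeq2. The deposited FPKM of the 10 libraries were used as given. The deposited table of comparisons also holds a signal per gene, the authors' mean of normalized counts from DESeq2, read only to set beside values listed at 0. A table of an earlier experiment, on samples of another study, was not used. Columns of the authors' fold changes and p-values were not used, nor were 22 further per-sample columns.

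Rows were named by Ensembl identifier through GENCODE M21 (45018 matched, 934 kept the name in the file), which also gave the gene positions on GRCm38. Values were analysed as log2(FPKM + 1), which understates changes of low genes. Detected rows (12637) were fitted in R 4.3.3 with limma 3.58.1 (eBayes with trend), with ganglion and sex as terms, and with their interaction in a further fit. Adjusted p are Benjamini-Hochberg values over all rows fitted, with a threshold of 0.05. Single genes, ratios and the order of levels were compared by exact permutation in Python 3.11.15 with numpy 2.4.6. The fit was tested on simulated data, and the exact tests were checked on fixed values with a known answer.

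The genes, the lists set beside them and the tests were chosen with earlier results of these data known. Lists were matched by symbol: 12 general sensory neuron genes (Tubb3 was not found under its symbol), 12 genes each of myelinated and unmyelinated afferents, 18 of satellite glia, 15 of Schwann cells and myelin, 12 of macrophages, 8 of fibroblasts and vessels (4 detected, 3 higher and 1 lower in DRG, none passing), 21 relatives, 21 axonal and 10 glial partners. Beyond the 8 genes, the text names from each list up to 4 genes with the smallest ganglion p and up to 4 with the highest mean, and the 2 genes nearest to each of the 8. Kcna1, Kcna2, Scn8a, Gldn, Mag, Cadm4, Pou4f1, Cx3cr1, Adgre1 and Ptprc were named outside this rule, after their values were seen. Numbers in the labels' descriptions pair 4 DRG with 4 TG libraries, and deviations of the same-numbered libraries correlated at 0.148 to 0.383, so a blocked fit was run. Alternatives were other pseudocounts, filters, scalings, weights, pairings and left-out libraries.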

Additional observations from a re-analysis of the deposited data

How the results depend on the processing

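Of 168 refits of the ganglion difference of the 7 genes (24 alternatives each), 1 passed the threshold: with array weights Cntnap2 stood at 0.92 (adjusted p = 0.0190), in a fit calling 118 genes against 14. Cntnap2 kept its sign throughout (0.79 to 1.08), as did Cntn2 and Epb41l3. Differences near 0 changed sign, none of them called. Ank3 went from -0.04 to 0.019 by median-ratio scaling, 0.071 by quantile normalization and 0.017 with array weights, Cntnap1 from 0.12 to -0.038 in the 8 libraries numbered in their descriptions, with or without the replicate block, and Nfasc from -0.06 to 0.075 in the 8 matched by sex and title number, with or without that block. The block by description number gave Cntnap2 a difference of 0.91 (adjusted p = 0.362), called 14 genes and changed no call of the 8 genes, and the pairing by title number, whose libraries did not deviate together (-0.36 to 0.10), called 12 genes with its block and 21 without.

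Leaving out 1 library at a time gave -0.29 to 0.012 for Cntn1 and -0.19 to 0.061 for Nfasc (the upper ends without male DRG replicate 3), -0.24 to 0.13 for Ank3, and 11 to 23 genes passing, the most without male DRG replicate 3. Male against female called 3 genes, 5 with array weights and 6 without the 3 DRG libraries that stood apart. The interaction called 0, but 3 with no filter, 1 with array weights, 10 without those 3 libraries and 0 to 5 without single libraries. None of the 7 genes passed in either, though all of them changed sign in at least 1 of 19 alternatives.

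The log2 ratio of Cntnap1 to Cntnap2 ranged from -0.97 to -0.70 and that of Cntnap2 to Cntn2 from 1.13 to 1.62 without single libraries, and were -0.56 and 0.86 without the 3 DRG libraries, where fewer libraries make the smallest possible p larger. Cntn1 to Cntn2 then turned to -0.013, and Sptbn4 to Ank3 ran from -0.26 to 0.23 without single libraries.

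Of the neighbours in level, Cntnap1 over Nfasc was 0.25 to 0.35 without single libraries (adjusted p = 0.0547 by the exact permutation test in 6 of 10) and 0.32 without the 3. Within the 6 DRG or the 4 TG libraries no pair passed. With 4 libraries the smallest p of the sign-flip test is above 0.05, so none could pass in TG. In the 6 DRG libraries a pair could pass only if most pairs reached the smallest p. Differences in DRG alone were 1.57 for Epb41l3 over Cntn1, -0.078 for Ank3 over Cntnap2, 0.99 for Cntn2 over Cntnap1, 0.37 for Cntnap1 over Nfasc and 2.14 for Nfasc over Sptbn4. In TG alone they were 1.15, 1.56, 0.19 and 2.15 for the same pairs without the second, and Cntnap2 over Cntn2 turned to -0.58, as it did to -0.21 without the 3 DRG libraries.

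The values used hold no read counts, so how far genes near 1 FPKM such as Sptbn4 are limited by depth is unknown. Each library is 1 mouse, all RNA was extracted in a single batch, and the dissociation kept fewer large neurons. Gene-level values merge the glial and axonal neurofascins.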
